A study of Mus musculus with 12 samples.

Results

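Solute carriers are membrane proteins that move nutrients, ions, metals and metabolites into cells, out of them or between their compartments. The genes described here have mouse symbols made of Slc, a family number, a letter and a member number, and were chosen by their level, at least 10 CPM (counts scaled to the same total of assigned reads) in 3 or more of 12 RNA sequencing libraries. Of 361 genes with such a symbol, 47 of the mitochondrial Slc25a family and 9 named genes (Slc2a1, Slc2a3, Slc16a3, Slc7a2, Slc7a11, Slc11a1, Slc11a2, Slc28a3 and Slc40a1) were left out beforehand. Among the other 305, 112 met the rule, out of 31054 gene identifiers measured in all. The rule used levels in all 12 libraries, so the levels themselves are a description of what was chosen. Ranked by the lowest of their 3 highest libraries, the last members were Slc30a1 at 11.9 CPM, Slc2a8 at 11.5, Slc35e3 at 10.5 and Slc35a1 at 10.04, while Slc35g1 at 9.598, Slc13a3 at 9.52, Slc16a13 at 8.96 and Slc22a15 at 8.43 lay just outside. Of the 193 genes below the minimum, 52 had no count in any library.

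Dendritic cells take up antigens and show them to T cells, either to activate or to restrain them. The cells studied had been grown out of bone marrow taken from wild-type C57BL6 mice. On day 7, live cells bearing the integrin chain CD11c had been enriched. The 4 groups were cells grown without tolerogenic treatment (BMDC), the same cells given bacterial lipopolysaccharide (LPS), tolerogenic cells (TolDC, made by adding IL-10 and vitamin D3) and TolDC given LPS, with 3 libraries in each. The sources used here give neither the doses nor the length of the LPS exposure. They do not say whether the libraries of a group came from separate mice or cultures, so p-values measure only the spread between these libraries, which may be technical. No deletion or transgene is named for any group.

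Some carriers sit in the plasma membrane and set what a cell takes up, and others sit in lysosomes, the Golgi or the endoplasmic reticulum and set what leaves or enters those compartments. When dendritic cells sense LPS they are known to shift towards glucose use, to take up more amino acids and to withhold metals from microbes. By general knowledge of each protein, 50 members act at the plasma membrane, 43 in internal membranes, and 19 were not assigned, so the genes are called solute carriers here and not plasma membrane transporters. RNA counts do not show where a protein is. By substrate, 22 members carry amino acids or related solutes, 20 metals or haem, 16 inorganic ions, 14 nucleotide sugars and other Golgi substrates, 9 each vitamins and related molecules or sugars, 4 nucleosides or nucleotides, 3 each peptides or fatty acids, 2 monocarboxylates and 1 amines, and for 9 the substrate is unsettled.

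The 12 libraries held 21844405 to 41764975 reads assigned to genes. The summed level of 9 dendritic cell markers was 8014 to 12125 CPM, with Itgax, which encodes CD11c, at a mean of 2137 CPM in BMDC and 2155 CPM in TolDC, and Flt3, a growth factor receptor of conventional dendritic cells, at 1.36 CPM or less in every group mean. Summed markers of T and NK, B, erythroid and fibroblast cells reached at most 11.9, 4.07, 1.02 and 0.790 CPM. The 6 macrophage markers summed to 520 to 546 CPM in BMDC and 535 to 544 in TolDC, and with LPS to 670 to 795 in BMDC and 947 to 1124 in TolDC, with no count of Vsig4 in either LPS group. Neutrophil and mast cell or basophil markers differed by library number: in BMDC the 10 neutrophil markers summed to 767, 2731 and 2655 CPM in libraries 1, 2 and 3, and the 8 mast cell or basophil markers to 32.6, 118 and 119 CPM. The neutrophil sums were 346, 1635 and 1475 CPM in BMDC with LPS, 326, 849 and 828 in TolDC alone and 162, 494 and 409 in LPS-treated TolDC. The mast cell or basophil sums were 212, 344 and 322 CPM in BMDC with LPS, 78.7, 283 and 283 in TolDC alone and 189.9, 410.5 and 357 in LPS-treated TolDC. So neutrophil sums were lower in TolDC and with LPS in each same-numbered pair, and mast cell or basophil and macrophage sums were higher with LPS. A sum does not show each marker. With LPS in TolDC the log2 change of the neutrophil marker Camp was 1.22, but those of Ly6g, Mpo and Ltf were -0.42, -0.92 and -0.98. Between TolDC and BMDC with LPS, Retnlg differed by 0.60, but S100a8 by -1.25, S100a9 by -1.86 and Camp by -1.36. Among the mast cell or basophil markers, Hdc differed by -0.43 between TolDC and BMDC with LPS, but Mcpt8 by 1.08, Cpa3 by 0.75 and Gata2 by 0.76. Changes with LPS are given for 4 of the 8, without Mcpt8, Kit, Ms4a2 and Hdc. In BMDC the log2 changes were 0.19 for Cpa3, 0.66 for Fcer1a, 0.30 for Prss34 and 0.56 for Gata2. In TolDC the changes of Cpa3, Fcer1a, Prss34 and Gata2 differed from those by -0.28, -0.70, -0.48 and -0.69. None of these log2 values had an adjusted p below 0.05 in edgeR's test without a block. With the library number as a block all of them did, with 0.0472 the highest, for Hdc. The part of these markers in the members' differences was not tested. In bulk RNA fewer cells of a type and less RNA per cell cannot be told apart. Set against the other libraries, the 4 numbered 1 differed at an adjusted p below 0.05 in 20 of 112 members (17.9%), and in 15.3% of all 13141 genes tested. The largest such difference among members was -0.48 on the log2 scale, for Slc16a10.

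Per length of transcript, in TPM (counts divided by exon length and scaled to the same total), the members' mean levels over the 12 libraries had a median of 19.99 and ran from 1.46 for Slc1a2 to 467 for Slc3a2, which encodes the heavy chain that brings several amino acid exchangers to the cell surface. The 10 most abundant members made up 45.6% of the members' summed TPM. In BMDC the order was led by Slc3a2 at 294 ± 10.6 TPM (mean ± SD, n = 3, as for all means below), Slc39a7 at 238 ± 8.02 and Slc39a1 at 167 ± 2.12, the last of which overlapped with Slc6a6 at 159.7 ± 10.6. Under LPS, BMDC still had Slc3a2 first, at 607 ± 9.98 TPM, followed by Slc15a3 at 310.1 ± 2.81 and Slc48a1 at 307 ± 4.16, a pair whose libraries overlapped. With LPS in TolDC, Slc3a2 at 676 ± 4.76 TPM was followed by Slc48a1 at 635 ± 12.8, with no overlap between their libraries.

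Summed over all 112 members, the level was 4010 ± 100.5 TPM in BMDC, 4943 ± 23.8 in BMDC with LPS, 4197 ± 58.3 in TolDC and 5367 ± 10.9 in TolDC with LPS. Metal and haem carriers summed to 1114 ± 18.997, 1415 ± 18.9, 1127 ± 23.0 and 1787 ± 17.0 TPM in the same order, and amino acid carriers to 1096 ± 40.5, 1490 ± 22.9, 1092 ± 9.68 and 1490 ± 8.02. Peptide carriers stood at 111 ± 2.38 and 136 ± 3.45 TPM without LPS, in BMDC and TolDC, and at 337 ± 2.41 and 369 ± 2.21 with it. Nucleotide sugar carriers went the other way, from 425 ± 1.42 and 432 ± 3.67 TPM without LPS to 341 ± 6.43 and 334 ± 0.342 with it. These sums are led by few genes and carry no test.

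**Figure D1:**
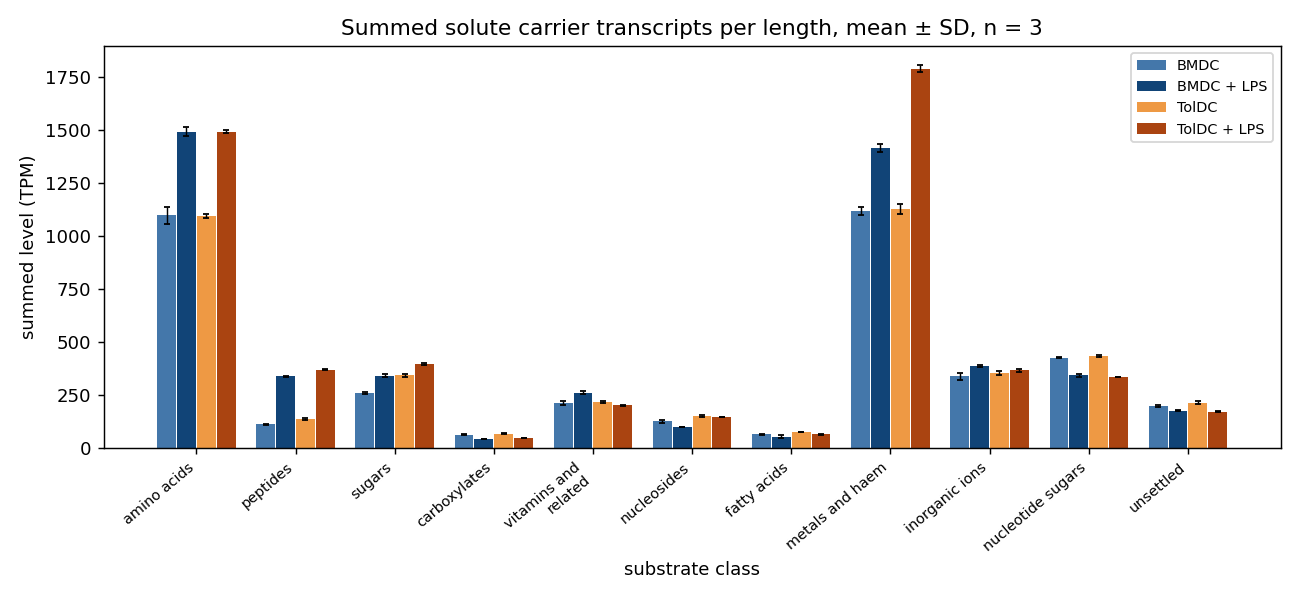
Summed level of the members of each substrate class in TPM (y axis), as bars for the mean of 3 libraries with the SD, in BMDC, BMDC with LPS, TolDC and TolDC with LPS. The class of 1 amine carrier is not drawn. Metal and haem carriers are highest in TolDC with LPS, at 1787 TPM, and peptide carriers are higher in both LPS groups.

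Changes between groups were tested with edgeR's quasi-likelihood test on all 13141 genes that passed the filter, and a gene is said to be called, or to have risen or fallen, where the Benjamini-Hochberg adjusted p was below 0.05. Calls were frequent in all genes. With LPS in BMDC, 41 members rose, 49 fell and 22 were not called, so 80.4% of members were called against 73.2% of all genes, of which 36.7% rose and 36.4% fell. In TolDC 39 members rose and 54 fell with LPS, 83% against 71.3% of all genes (35.4% up and 35.9% down). Against BMDC, TolDC without LPS had 46 members higher and 35 lower, 72.3% against 62.4% of all genes (32% higher and 30.4% lower). With LPS in both, 56 were higher and 32 lower, 78.6% against 67.9% (34.3% and 33.7%). The LPS responses of TolDC and BMDC themselves differed in 65 members, 37 with a higher and 28 with a lower change in TolDC, 58% against 44.4% (20.4% and 24%). Members were chosen by level and the genes tested were not, so these shares, and those of classes below, do not compare genes of like level. Of 57 tested solute carriers that did not meet the rule, 71.9%, 66.7%, 54.4%, 56.1% and 38.6% were called in these comparisons. The members' median log2 changes were -0.03, -0.12, 0.05, 0.14 and 0.02 in these comparisons, and those of all genes tested lay between -0.01 and 0.02.

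Changes of 2-fold or more were fewer. With LPS in BMDC 13 of 112 members rose and 4 fell that far, against 1472 (11.2%) and 1444 (11%) of 13141 genes. In TolDC 13 members rose and 5 fell, against 1267 (9.64%) and 1396 (10.6%) of all genes. Without LPS 3 members were at least 2-fold higher in TolDC than in BMDC and 8 lower, against 853 (6.49%) and 1055 (8.03%) of all genes. With LPS 4 were higher and 9 lower, against 900 (6.85%) and 1248 (9.5%). The LPS responses differed that far in 3 members upwards and 4 downwards, against 482 (3.67%) and 607 (4.62%) of all genes. The rule admits few lowly expressed genes, and 91 members reached 10 CPM in all 12 libraries. The 21 others include genes that passed through the groups in which they were high, and 9 members had a mean over the 12 libraries under 10 CPM. To see where the rule could fix a direction, groups were pooled into sides, TolDC or BMDC, and with or without LPS. In 12 members fewer than 3 libraries on 1 such side met the minimum. A difference between these sides can follow from the choice and is given as values only. The 12 were Slc2a8, Slc26a6, Slc30a1 and Slc35e3 between TolDC and BMDC, Slc20a2, Slc27a3, Slc35e4 and Slc41a3 with LPS, and Slc1a2, Slc18a1, Slc19a1 and Slc35a1 in both respects. The counts above include these 12. Outside them, no library of 1 group met the minimum for Slc16a10 and Slc39a2 (TolDC), Slc52a3 (TolDC with LPS), Slc22a4 (BMDC) and Slc37a3 (BMDC with LPS). The comparisons share groups (the BMDC libraries enter 2 of the first 4, as do the others), so the sets of calls are not independent of each other.

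The direction of the LPS response was mostly the same in both kinds of cell, with 30 members that rose in both (26.8%, against 26.9% of all genes tested) and 40 that fell in both (35.7% against 26.6%). It was opposite in 12 (10.7% against 4.81%). Slc12a4, Slc12a7, Slc20a1, Slc33a1, Slc41a1, Slc52a3 and Slc6a6 rose in BMDC and fell in TolDC, and Slc36a1, Slc36a4, Slc39a7, Slc6a8 and Slc7a8 fell in BMDC and rose in TolDC. The difference between the responses was called in each of these 12.

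**Figure D2:**
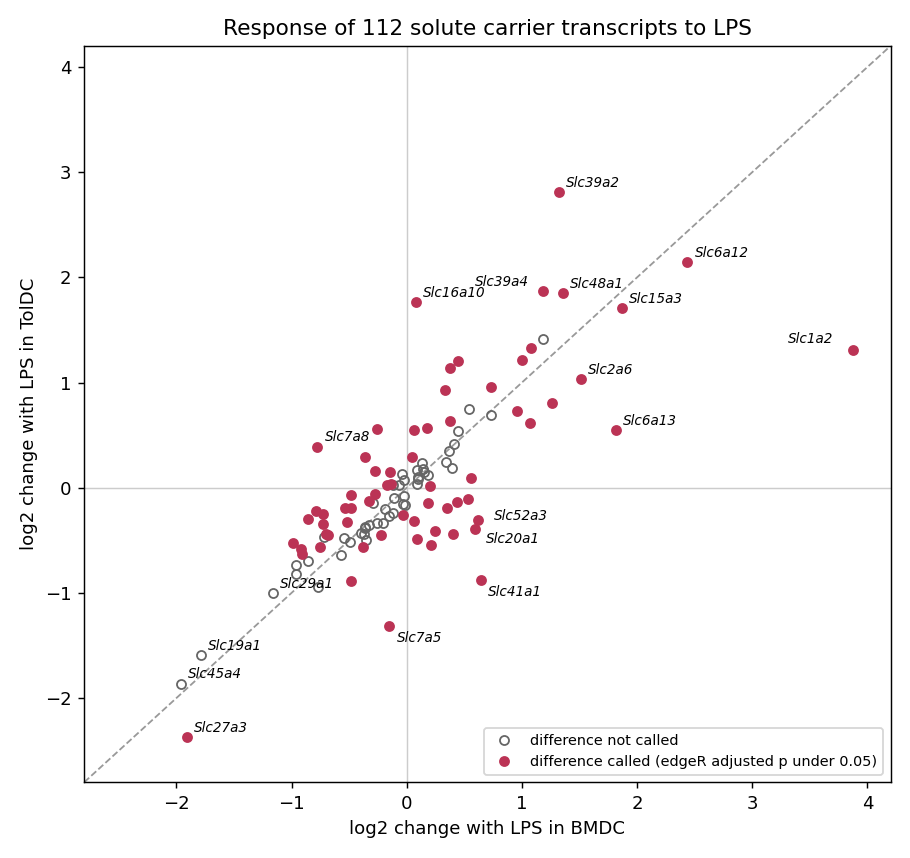
Log2 change with LPS of each of the 112 members in BMDC (x axis) and TolDC (y axis), with filled points where the difference between the responses was called and a dashed line of equal change. Slc1a2 lies far to the right of the line and Slc16a10, Slc39a2 and Slc48a1 lie above it, and Slc7a5, Slc41a1 and Slc20a1 lie below 0 on the y axis.

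Amino acid carriers supply building blocks and signals for growth, and in activated immune cells they are known to feed the kinase complex mTORC1. With LPS 8 of the 22 rose and 11 fell in BMDC (86.4% called, against 73.2% of all genes tested). In TolDC 12 rose and 9 fell (95.5% against 71.3%). Apart from Slc1a2, described last, the largest rise in BMDC was of Slc6a12 (BGT1; ENSMUSG00000030109, chr6:121343076-121365775, forward strand, GRCm38), a carrier of betaine and GABA. It stood at 32.8, 32.6 and 32.6 CPM in the 3 BMDC libraries and 170.4, 168 and 166 with LPS. In TolDC it was 45.7, 46.2 and 43.0 CPM, and 186, 187 and 183 with LPS. Every LPS library was above every library without LPS, and the TolDC libraries were above those of BMDC. The log2 change was 2.44 ± 0.042 (SE, adjusted p = 2.88e-19) in BMDC, a 5.41-fold rise, and 2.14 ± 0.041 (SE, adjusted p = 1.05e-18) in TolDC, and the responses differed by -0.29 ± 0.058 (SE, adjusted p = 4.15e-04).

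Slc6a13 (GAT2; ENSMUSG00000030108, chr6:121300227-121337733, forward strand), which carries GABA, betaine and taurine, lies 5342 bases from Slc6a12 on the same strand. Its values were 9.23, 10.4 and 9.42 CPM in BMDC and 31.3, 32.9 and 33.1 with LPS, a log2 change of 1.81 ± 0.069 (SE, adjusted p = 2.14e-14). In TolDC they were 16.8, 15.3 and 14.6 CPM, and 19.6, 22.1 and 21.9 with LPS, a change of 0.54 ± 0.066 (SE, adjusted p = 5.37e-07). TolDC were thus above BMDC without LPS (0.68 ± 0.072 SE, adjusted p = 1.60e-07) and below them with it (-0.59 ± 0.062 SE, adjusted p = 1.18e-07), and the groups did not overlap in either comparison. The difference between the responses was -1.27 ± 0.096 (SE, adjusted p = 5.77e-09). Slc6a6, the taurine carrier, was the most abundant of the family per length in every group but TolDC with LPS, where Slc6a12 was at 176 ± 2.17 TPM and Slc6a6 at 118 ± 0.763. It went from 477 ± 24.1 to 575 ± 24.8 CPM with LPS in BMDC and from 425 ± 12.8 to 346 ± 1.88 in TolDC, one of the opposite responses above.

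Slc6a8 (ENSMUSG00000019558, chrX:73673150-73682502, forward strand), the creatine carrier, had the largest called excess of all members in TolDC with LPS. It was 18.6, 19.3 and 19.99 CPM in BMDC and 39.98, 38.4 and 33.9 in TolDC, a log2 difference of 0.95 ± 0.067 (SE, adjusted p = 4.46e-10). With LPS it was 15.7, 15.5 and 14.6 CPM in BMDC and 53.9, 50.7 and 49.6 in TolDC, a difference of 1.77 ± 0.067 (SE, adjusted p = 4.34e-14) or 3.41-fold. LPS lowered it in BMDC (-0.26 ± 0.073 SE, adjusted p = 0.00382) and raised it in TolDC (0.56 ± 0.061 SE, adjusted p = 1.50e-07).

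Large neutral amino acids enter through exchangers made of Slc3a2 and a light chain. The heavy chain Slc3a2 (ENSMUSG00000010095, chr19:8706882-8723369, reverse strand) stood at 374, 357 and 369 CPM in BMDC and 745, 729 and 728 with LPS, and at 348, 356 and 349 CPM in TolDC and 833, 819 and 822 with LPS. It rose 2.11-fold in BMDC (1.08 ± 0.038 SE, adjusted p = 7.45e-15) and 2.52-fold in TolDC (1.33 ± 0.038 SE, adjusted p = 4.02e-16), and the latter change was larger by 0.26 ± 0.053 (SE, adjusted p = 6.87e-04). The light chains each had an order of their own. Slc7a5 (LAT1; ENSMUSG00000040010, chr8:121881150-121907694, reverse strand) was 106, 111 and 113 CPM in BMDC, 97.0, 91.4 and 93.7 in BMDC with LPS, 128, 135 and 134 in TolDC alone and 49.3, 48.8 and 50.9 in LPS-treated TolDC. The last group lay below all others, with a log2 change of -1.31 ± 0.044 (SE, adjusted p = 4.46e-15) in TolDC, a 2.48-fold fall. In BMDC the change was -0.15 ± 0.043 (SE, adjusted p = 0.00446), or -0.23 with upper-quartile scaling. The difference between the responses was -1.16 ± 0.062 (SE, adjusted p = 6.81e-11), and TolDC went from above BMDC without LPS (0.26 ± 0.043 SE, adjusted p = 3.44e-05) to below them with it (-0.90 ± 0.044 SE, adjusted p = 2.12e-12).

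Slc7a8 (LAT2; ENSMUSG00000022180, chr14:54722209-54781946, reverse strand), another light chain, was 90.6, 85.2 and 86.6 CPM in BMDC and 33.5, 33.3 and 36.1 in TolDC, 2.55-fold lower (-1.35 ± 0.11 SE, adjusted p = 7.95e-07). With LPS the groups overlapped, at 42.2, 53.0 and 51.0 CPM in BMDC against 33.9, 48.5 and 44.0 in TolDC, and their difference was not called. Slc7a6, a light chain that exchanges arginine for neutral amino acids, rose from 20.2 ± 0.686 to 40.2 ± 1.17 CPM in BMDC (1.07 ± 0.054 SE, adjusted p = 1.68e-12) and less in TolDC, from 24.5 ± 0.498 to 35.0 ± 1.12 (0.61 ± 0.053 SE, adjusted p = 5.10e-09). Slc16a10 (TAT1; ENSMUSG00000019838, chr10:40033532-40142258, reverse strand), which lets aromatic amino acids cross by facilitated diffusion, was 19.4, 21.03 and 20.9 CPM in BMDC, 14.9, 24.4 and 23.0 with LPS, 6.83, 8.86 and 9.08 in TolDC alone and 17.9, 32.4 and 28.6 in LPS-treated TolDC. Only the TolDC libraries without LPS stood clear of the other 3 groups, at the low end. The difference between TolDC and BMDC was -1.31 ± 0.26 (SE, adjusted p = 0.00195) without LPS, the LPS change in TolDC 1.76 ± 0.25 (SE, adjusted p = 1.90e-04), and the difference between the responses 1.69 ± 0.35 (SE, adjusted p = 0.00388). In every group library 1 was the lowest for Slc16a10, as it was for the neutrophil and mast cell or basophil sums. Without the 4 libraries numbered 1 the difference between the responses was 1.62.

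Slc1a2 (GLT-1; ENSMUSG00000005089, chr2:102658659-102790784, forward strand), a glutamate carrier best known from astrocytes, was the lowest member per length and entered through TolDC with LPS alone. It was 0.581, 0.400 and 0.487 CPM in BMDC, 6.51, 7.00 and 7.10 with LPS, 6.50, 4.73 and 6.09 in TolDC alone and 12.6, 13.9 and 13.6 in LPS-treated TolDC. The BMDC libraries were below all others and the TolDC libraries with LPS above them, and the remaining groups lay next to each other. Among the rest, Slc1a5, a glutamine carrier, was 168 ± 4.84 CPM in BMDC and 94.5 ± 3.08 with LPS, and 159 ± 2.07 and 101 ± 2.31 in TolDC. Slc38a2, a carrier of small neutral amino acids, was called in none of the 5 comparisons, with means from 78.8 to 89.2 CPM. With the library number as a block its LPS change in TolDC was called, at -0.08 ± 0.034 (SE, adjusted p = 0.033). Slc38a6 was lower in TolDC, 27.4 ± 0.463 against 55.9 ± 2.50 CPM (-1.03 ± 0.049 SE, adjusted p = 1.45e-12), and with LPS 39.7 ± 1.34 against 69.0 ± 2.37 (-0.78 ± 0.046 SE, adjusted p = 3.18e-11).

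Several members act in lysosomes. Slc38a9, an arginine-regulated carrier through which lysosomes signal to mTORC1, was 29.6 ± 1.83 CPM in TolDC against 16.5 ± 1.27 in BMDC, and 22.9 ± 0.754 against 14.2 ± 0.296 with LPS. Slc38a7, a lysosomal glutamine carrier, rose with LPS from 28.6 ± 1.44 to 44.8 ± 2.20 CPM in BMDC (0.73 ± 0.060 SE, adjusted p = 2.64e-09) and from 35.7 ± 1.70 to 64.7 ± 2.55 in TolDC (0.95 ± 0.057 SE, adjusted p = 2.47e-11). Slc36a1, a proton-coupled amino acid carrier, and Slc17a5, the sialic acid and acidic amino acid exporter, were lower in TolDC, at 55.0 ± 1.93 against 82.2 ± 2.27 and 31.5 ± 1.22 against 46.4 ± 3.14 CPM. Slc38a1, a glutamine importer, fell with LPS in both, from 134 ± 4.79 to 96.5 ± 1.69 CPM in BMDC and from 162 ± 5.19 to 112 ± 2.45 in TolDC. The essential amino acid carrier Slc43a2 also fell in both, and was 129.8 ± 2.93 and 76.1 ± 5.67 CPM in BMDC without and with LPS. Slc7a1 (CAT1), the cationic amino acid importer, was 48.0 ± 2.19 CPM in BMDC and 59.7 ± 2.86 in TolDC, and Slc38a10 was 166 ± 6.12 and 190.3 ± 3.00, both higher in TolDC. Slc36a4 was 76.5 ± 3.37, 56.5 ± 2.26, 60.4 ± 2.51 and 69.2 ± 0.710 CPM in BMDC, BMDC with LPS, TolDC and TolDC with LPS. Of 23 tested genes of amino acid sensing by mTORC1, 11 rose and 9 fell with LPS in BMDC, and 11 rose and 6 fell in TolDC. The medians were -0.08 and 0.08, and 87% and 73.9% were called, against 73.2% and 71.3% of all genes. Castor2, a relative of the arginine sensor Castor1, was 76.0 ± 3.27 CPM in BMDC with LPS and 17.5 ± 0.566 in TolDC with LPS. Between these groups 11 genes of the list were higher in TolDC and 5 lower, with a median of 0.15. That is 69.6% called, against 67.9% of all genes. All 3 genes of glutathione synthesis (Gclc, Gclm and Gss) rose with LPS in both kinds of cell, as did 36.7% of all genes in BMDC and 35.4% in TolDC. Gss was 92.1 ± 4.30 CPM in TolDC against 31.0 ± 1.01 in BMDC.

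Peptide carriers of lysosomes and endosomes bring bacterial wall peptides to their sensors in the cytosol. Slc15a3 (PHT2; ENSMUSG00000024737, chr19:10839727-10859362, forward strand), the main one by level, was 167, 166 and 171 CPM in BMDC and 580.2, 590.5 and 581 with LPS, and 221, 213 and 213 in TolDC and 653, 660.3 and 655 with LPS. It rose 3.65-fold in BMDC (1.87 ± 0.037 SE, adjusted p = 1.52e-18) and 3.26-fold in TolDC (1.70 ± 0.036 SE, adjusted p = 5.29e-18), and was higher in TolDC than in BMDC without LPS (0.36 ± 0.036 SE, adjusted p = 8.43e-08) and with it (0.19 ± 0.035 SE, adjusted p = 1.02e-04). Slc15a4 (PHT1), its relative, which is needed for signalling by endosomal Toll-like receptors, was 35.0 ± 1.82 and 34.2 ± 1.69 CPM in BMDC without and with LPS and was not called there. It rose in TolDC, from 30.1 ± 1.24 to 34.4 ± 1.11 CPM (0.29 ± 0.054 SE, adjusted p = 8.18e-05). The plasma membrane carrier Slc15a2 (PEPT2) rose in BMDC, from 15.4 ± 0.730 to 21.1 ± 0.646 CPM (0.53 ± 0.071 SE, adjusted p = 1.89e-06), was not called in TolDC, and with LPS was lower in TolDC, at 11.6 ± 0.842 (-0.84 ± 0.071 SE, adjusted p = 5.27e-09).

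**Figure D3:**
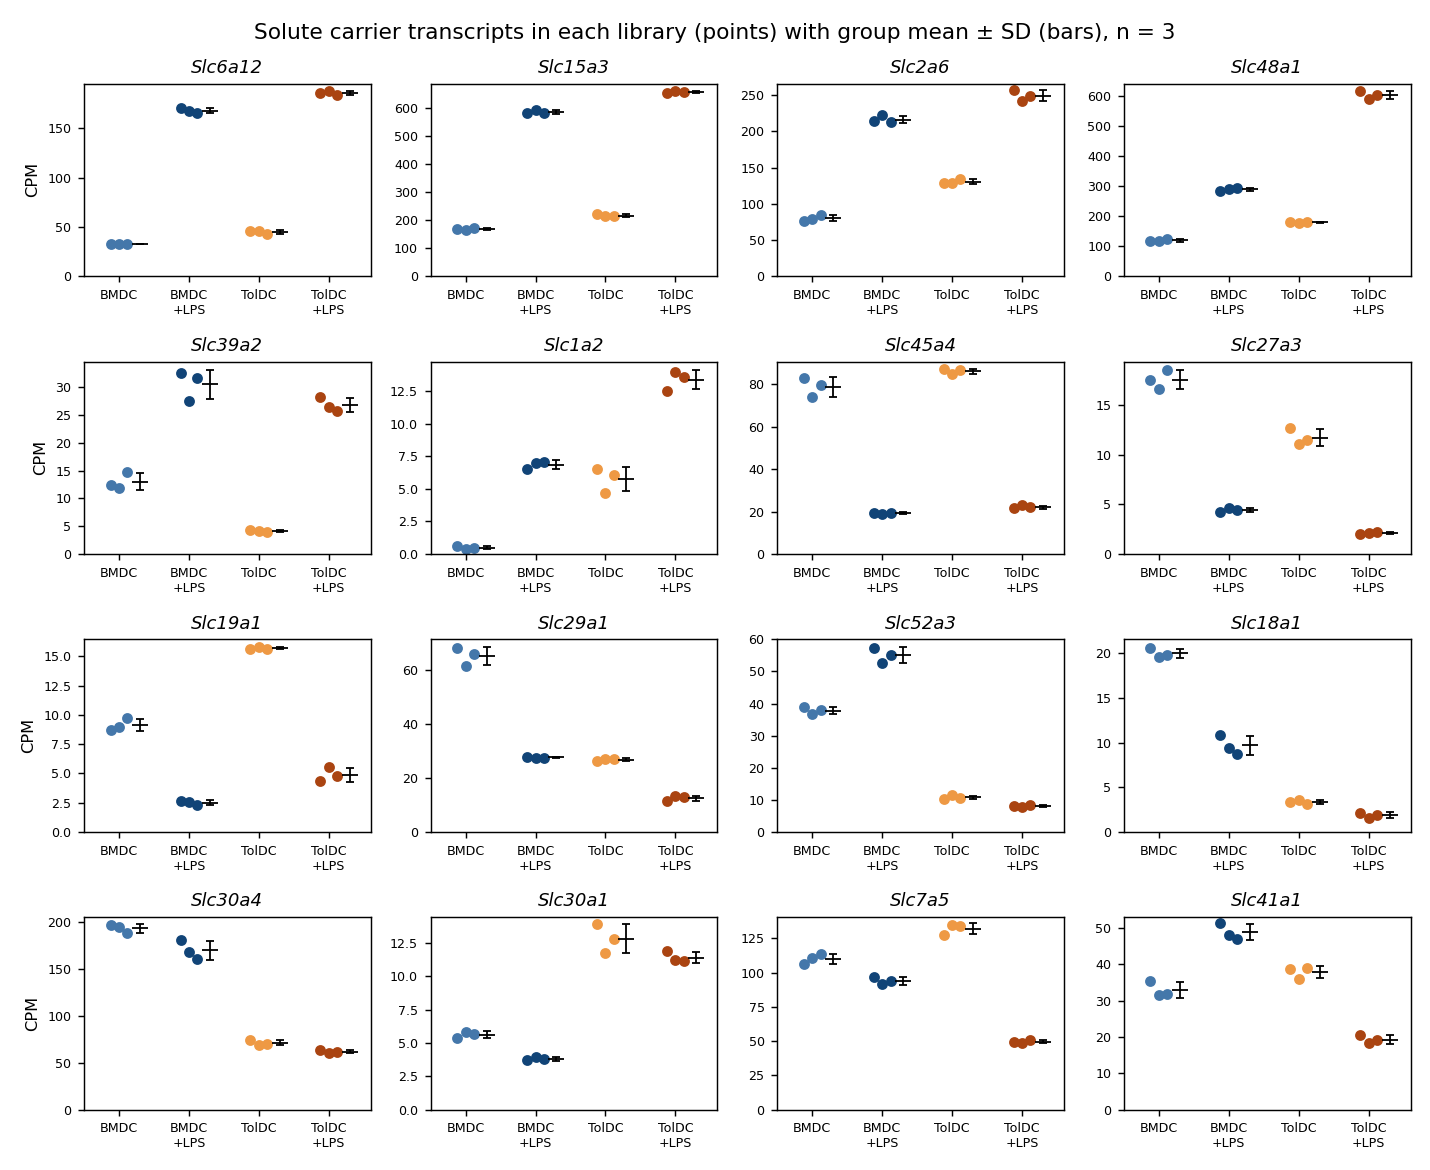
Levels in CPM (y axis, from 0) of 16 members in each library (points) of the 4 groups, with the group mean and SD (n = 3) beside them. Slc6a12, Slc15a3, Slc2a6 and Slc48a1 are higher in every LPS library of a cell type, Slc45a4 and Slc29a1 lower, and Slc52a3 and Slc30a4 are lower in both TolDC groups than in both BMDC groups.

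Of the 9 sugar carriers, 2 rose and 6 fell with LPS in BMDC (88.9% called, against 73.2% of all genes tested). In TolDC 1 rose and 5 fell (66.7% against 71.3%). Slc2a6 (GLUT6; ENSMUSG00000036067, chr2:27021363-27027998, reverse strand), a lysosomal member of the glucose carrier family, was the most abundant, at 76.5, 79.4 and 84.1 CPM in BMDC, 214, 222 and 212 with LPS, 128, 129 and 134 in TolDC alone and 257, 242 and 248 in LPS-treated TolDC. Its libraries ordered the 4 groups without overlap. The change with LPS was 1.51 ± 0.044 (SE, adjusted p = 5.41e-16) in BMDC and 1.03 ± 0.043 (SE, adjusted p = 1.09e-13) in TolDC, which started higher (0.70 ± 0.044 SE, adjusted p = 9.66e-11), and the responses differed by -0.48 ± 0.061 (SE, adjusted p = 4.60e-06). Slc45a4 (ENSMUSG00000079020, chr15:73577424-73645762, reverse strand), of a family that carries sucrose and glucose with protons, had the largest fall with LPS in BMDC of all members. It went from 82.8, 73.7 and 79.4 to 19.3, 18.7 and 19.5 CPM in BMDC, 3.89-fold lower (-1.96 ± 0.050 SE, adjusted p = 6.77e-17), and from 86.9, 84.6 and 86.4 to 21.5, 22.9 and 21.9 in TolDC (-1.86 ± 0.047 SE, adjusted p = 7.63e-17). The falls in BMDC and TolDC were not called different.

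The sugar phosphate carriers of the Slc37 family each had their own order. Slc37a1 rose in BMDC, from 22.1 ± 1.47 to 28.5 ± 1.25 CPM (0.44 ± 0.064 SE, adjusted p = 5.55e-06), and with LPS was lower in TolDC, at 17.1 ± 1.15 (-0.72 ± 0.064 SE, adjusted p = 1.20e-08). Slc37a3 fell in BMDC from 15.7 ± 0.973 to 8.98 ± 0.369 CPM (-0.73 ± 0.077 SE, adjusted p = 7.58e-08) and in TolDC from 14.5 ± 0.873 to 10.7 ± 0.735 (-0.34 ± 0.074 SE, adjusted p = 4.27e-04). Slc37a2, the most abundant of them, was 86.7 ± 1.06 CPM in TolDC against 63.8 ± 2.61 in BMDC. Slc37a4, the glucose 6-phosphate carrier, and Slc50a1, a sugar effluxer, were each higher in TolDC than in BMDC, with and without LPS. Slc2a8, an intracellular GLUT, met the minimum in 6 TolDC libraries and 1 of BMDC, and was 12.4 ± 0.928 CPM in TolDC and 8.96 ± 1.02 in BMDC, and 10.1 ± 0.0514 and 7.47 ± 0.216 with LPS. Slc2a9, the urate carrier, was 30.4 ± 1.06 CPM in BMDC and 22.3 ± 0.367 with LPS.

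The monocarboxylate carriers, which carry lactate, pyruvate or ketone bodies, both fell with LPS in both kinds of cell. Slc16a1 (MCT1) fell from 55.2 ± 1.25 to 31.7 ± 1.68 CPM in BMDC (-0.72 ± 0.053 SE, adjusted p = 3.84e-10) and from 38.6 ± 1.21 to 30.3 ± 0.799 in TolDC (-0.25 ± 0.053 SE, adjusted p = 3.58e-04). Slc16a6 (MCT7; ENSMUSG00000041920, chr11:109450855-109473598, reverse strand) was 45.9, 46.5 and 44.9 CPM in BMDC and 70.1, 66.6 and 68.0 in TolDC, which was higher by 0.57 ± 0.042 (SE, adjusted p = 9.80e-10). With LPS it was 33.0, 33.7 and 35.3 CPM in BMDC against 42.4, 46.5 and 46.4 in TolDC, a difference of 0.43 ± 0.044 (SE, adjusted p = 7.01e-08). Its exons overlap those of Amz2 and Arsg on the opposite strand, and unstranded counting kept 70.9% of its reads. Of the chaperones that bring such carriers to the surface, Emb (embigin) was 134 ± 11.6 CPM in BMDC and 468 ± 8.39 in TolDC (1.80 ± 0.053 SE, adjusted p = 1.74e-15). Bsg (basigin) was 292 ± 7.19 CPM in BMDC with LPS and 381 ± 6.15 in TolDC with LPS (0.41 ± 0.040 SE, adjusted p = 3.69e-08).

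Of 9 vitamin carriers, 5 were higher and 2 lower in TolDC than in BMDC, and with LPS 3 were higher and 4 lower. In both comparisons 77.8% were called, against 62.4% of all genes without LPS and 67.9% with it. Slc52a3 (RFVT3; ENSMUSG00000027463, chr2:151996511-152009258, forward strand), a riboflavin importer with the largest fold deficit of all members in TolDC with LPS, was 38.8, 36.6 and 37.9 CPM in BMDC and 10.2, 11.4 and 10.6 in TolDC, 3.53-fold lower (-1.82 ± 0.063 SE, adjusted p = 1.55e-14). With LPS it was 57.4, 52.5 and 55.2 CPM in BMDC and 8.11, 7.80 and 8.36 in TolDC, 6.70-fold lower (-2.74 ± 0.062 SE, adjusted p = 2.53e-17). All 6 TolDC libraries were below all 6 BMDC libraries. LPS raised it in BMDC (0.62 ± 0.054 SE, adjusted p = 5.92e-09) and lowered it in TolDC (-0.31 ± 0.071 SE, adjusted p = 8.11e-04). Slc52a2, the other riboflavin carrier among the members, was 23.5 ± 1.10 CPM in BMDC and 28.4 ± 0.693 in TolDC.

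Slc19a1 (RFC1; ENSMUSG00000001436, chr10:77032241-77061002, forward strand), the reduced folate carrier, which also imports cyclic dinucleotides, entered the set through the TolDC libraries without LPS. It was 8.72, 8.96 and 9.73 CPM in BMDC, 2.65, 2.56 and 2.26 with LPS, 15.6, 15.8 and 15.6 in TolDC alone and 4.35, 5.53 and 4.74 in LPS-treated TolDC, and no groups overlapped. Its relative Slc19a2, a thiamine carrier, rose in BMDC from 51.9 ± 1.33 to 72.4 ± 3.51 CPM (0.55 ± 0.048 SE, adjusted p = 5.25e-09) and was not called in TolDC, where the means were 54.2 ± 1.79 and 54.0 ± 0.467. Slc23a2 (SVCT2; ENSMUSG00000027340, chr2:132052496-132145108, reverse strand), the vitamin C carrier, was the most abundant of the class by count, at 168, 148 and 147 CPM in BMDC, 162, 149 and 157 with LPS, 207, 192 and 197 in TolDC alone and 136, 127 and 133 in LPS-treated TolDC. It was higher in TolDC than in BMDC without LPS (0.36 ± 0.057 SE, adjusted p = 3.12e-05) and lower with it (-0.22 ± 0.057 SE, adjusted p = 0.00282), and fell with LPS in TolDC (-0.49 ± 0.057 SE, adjusted p = 5.69e-07).

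The carriers Slc22a4 and Slc22a5 lie 91462 bases apart. Slc22a4 (OCTN1), which carries the antioxidant ergothioneine, rose from 9.22 ± 0.609 to 19.9 ± 1.07 CPM in BMDC (1.18 ± 0.070 SE, adjusted p = 1.87e-11) and from 13.3 ± 0.670 to 33.1 ± 0.857 in TolDC (1.41 ± 0.065 SE, adjusted p = 4.21e-13), and was higher in TolDC without LPS (0.53 ± 0.073 SE, adjusted p = 4.32e-06) and with it (0.76 ± 0.062 SE, adjusted p = 3.61e-09). Slc22a5 (OCTN2), the carnitine carrier, ranged from a mean of 10.05 ± 1.46 CPM in BMDC to 14.6 ± 0.200 in TolDC with LPS. Slc5a6, which imports biotin and pantothenate, was lower in TolDC, at 13.6 ± 1.76 against 18.01 ± 0.772 CPM (-0.40 ± 0.088 SE, adjusted p = 6.34e-04), and with LPS at 11.6 ± 1.04 against 19.5 ± 0.372 (-0.73 ± 0.087 SE, adjusted p = 6.07e-07). Slc44a2, a choline carrier, was called in no comparison, with means of 82.7 to 91.2 CPM. Of 6 tested genes of choline and phospholipid synthesis, 1 rose and 3 fell with LPS in BMDC and 4 rose in TolDC. In each 66.7% were called, against 73.2% and 71.3% of all genes.

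**Figure D4:**
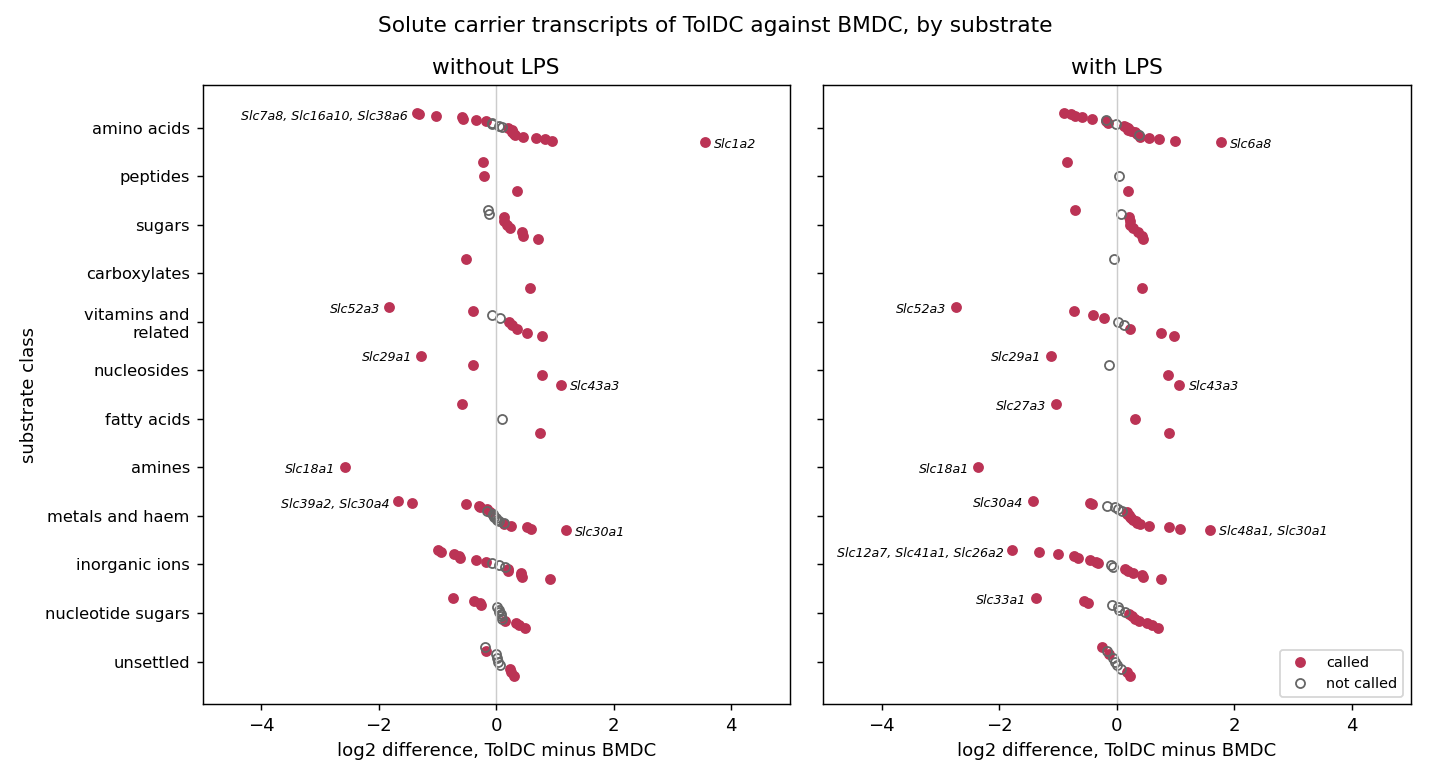
Log2 difference between TolDC and BMDC (x axis) of each of the 112 members, by substrate class (y axis), without LPS (left) and with LPS (right), with filled points for adjusted p below 0.05 in edgeR and names at 2-fold or more. Slc52a3, Slc18a1, Slc29a1 and Slc30a4 are at the left in both panels, and Slc43a3 and Slc30a1 at the right. Slc18a1 entered through BMDC and Slc30a1 through TolDC, so their sides can follow from the choice.

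Nucleoside carriers salvage bases and set how long extracellular adenosine acts. Slc29a1 (ENT1; ENSMUSG00000023942, chr17:45585200-45599606, reverse strand), which takes up adenosine, was lower both with LPS and in TolDC. It was 68.3, 61.7 and 66.0 CPM in BMDC, 28.0, 27.6 and 27.6 with LPS, 26.2, 27.1 and 27.2 in TolDC alone and 11.4, 13.2 and 12.9 in LPS-treated TolDC. The BMDC libraries with LPS and the TolDC libraries without it lay side by side in the middle, with BMDC above and TolDC with LPS below. The change with LPS was -1.16 ± 0.052 (SE, adjusted p = 2.76e-13) in BMDC and -1.003 ± 0.058 (SE, adjusted p = 1.27e-11) in TolDC, and the difference of TolDC from BMDC was -1.29 ± 0.052 (SE, adjusted p = 1.50e-13) without LPS and -1.13 ± 0.058 (SE, adjusted p = 3.62e-12) with it. Unstranded counting kept 75.0% of its reads, and Gm17080 overlaps its exons on the other strand. Slc29a3 (ENT3; ENSMUSG00000020100, chr10:60712072-60752794, reverse strand), its lysosomal relative, had another order. It was 109.8, 95.3 and 97.5 CPM in BMDC and 102, 89.6 and 90.2 with LPS, and 183, 169 and 168 in TolDC and 177, 165 and 167 with LPS, so LPS made no called change, while TolDC were higher by 0.78 ± 0.071 (SE, adjusted p = 3.63e-07) without LPS and 0.87 ± 0.071 (SE, adjusted p = 8.43e-08) with it. With the library number as a block, the LPS change in TolDC was called, at 0.07 ± 0.031 (SE, adjusted p = 0.0442). In each group library 1 had the highest value.

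Slc43a3 (ENBT1; ENSMUSG00000027074, chr2:84936579-84958509, forward strand), a carrier of purine bases, was also higher in TolDC. It was 19.7, 20.1 and 21.01 CPM in BMDC and 45.3, 42.9 and 42.6 in TolDC, 2.15-fold higher (1.10 ± 0.084 SE, adjusted p = 2.24e-08), and with LPS 25.8, 35.0 and 35.7 in BMDC against 63.4, 68.4 and 65.7 in TolDC (1.07 ± 0.078 SE, adjusted p = 1.12e-08). LPS raised it in both (0.73 ± 0.086 in BMDC and 0.69 ± 0.076 in TolDC, adjusted p = 1.83e-06 and 8.42e-07). Slc17a9 (VNUT), which loads ATP into vesicles, fell with LPS, from 19.4 ± 0.687 to 11.2 ± 0.838 CPM in BMDC (-0.72 ± 0.087 SE, adjusted p = 5.25e-07) and from 14.9 ± 2.06 to 10.1 ± 0.452 in TolDC (-0.46 ± 0.087 SE, adjusted p = 1.06e-04).

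Metal carriers decide where zinc, copper, manganese and haem iron go, and phagocytes are known to move zinc and copper when they meet bacterial products. Proteins of the Slc39 family (ZIP) bring zinc into the cytosol, those of the Slc30 family (ZnT) take it out or into vesicles, and metallothioneins bind it. With LPS 8 of 20 members rose and 9 fell in BMDC (85% called, against 73.2% of all genes tested). In TolDC 10 rose and 8 fell (90% against 71.3%). The change with LPS was higher in TolDC for 13 of the 20 and lower for 1, so 70% were called. Of all genes 44.4% were called, 20.4% higher and 24% lower. The class median of that difference was 0.30.

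Slc48a1 (HRG1; ENSMUSG00000081534, chr15:97778520-97792692, forward strand), which exports haem from the lysosomes in which red cells and proteins are broken down, had the widest range in CPM in the class, though not in fold. It was 117, 116 and 124 CPM in BMDC and 284, 291 and 294 with LPS, and 180.3, 179 and 179 in TolDC and 617, 590.0 and 606 with LPS. None of the groups overlapped. LPS raised it 2.56-fold in BMDC (1.36 ± 0.040 SE, adjusted p = 5.93e-16) and 3.60-fold in TolDC (1.85 ± 0.040 SE, adjusted p = 6.65e-18), a difference of 0.49 ± 0.056 (SE, adjusted p = 9.52e-07). TolDC exceeded BMDC by 0.59 ± 0.040 (SE, adjusted p = 2.88e-10) without LPS and 1.08 ± 0.039 (SE, adjusted p = 2.15e-14) with it. The copper carriers Slc31a1 (CTR1), the plasma membrane importer, and Slc31a2 (CTR2), of endosomes, lie 62315 bases apart. Slc31a2 rose from 98.7 ± 3.36 to 188 ± 8.33 CPM in BMDC (1.001 ± 0.044 SE, adjusted p = 1.71e-13) and from 98.3 ± 0.654 to 213 ± 15.9 in TolDC (1.21 ± 0.043 SE, adjusted p = 1.11e-14). Slc31a1 was 108 ± 3.41, 139.6 ± 12.6, 118 ± 4.14 and 160.2 ± 14.3 CPM in BMDC, BMDC with LPS, TolDC and TolDC with LPS.

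Among the zinc importers, 5 of 11 rose and 6 fell with LPS in BMDC, and 6 rose and 5 fell in TolDC. All were thus called in each, against 73.2% and 71.3% of all genes. Some of these calls were lost in alternative runs. In BMDC Slc39a1 (0.10) lost its call in 6 runs and Slc39a3 (0.17) in 8. In TolDC Slc39a1 (0.11) and Slc39a11 (-0.19) each lost theirs in 2. Slc39a2 (ZIP2; ENSMUSG00000072572, chr14:51892889-51896745, forward strand) was 12.5, 11.8 and 14.7 CPM in BMDC and 32.5, 27.6 and 31.6 with LPS, a rise of 1.32 ± 0.085 (SE, adjusted p = 8.08e-11). In TolDC it was 4.27, 4.09 and 3.90 CPM, and 28.2, 26.4 and 25.8 with LPS, 7.02-fold higher (2.81 ± 0.10 SE, adjusted p = 1.23e-14). The TolDC libraries without LPS were lowest (-1.67 ± 0.11 SE, adjusted p = 1.55e-10 against BMDC), the groups overlapped with LPS, and the responses differed by 1.49 ± 0.13 (SE, adjusted p = 5.99e-08). With LPS the difference was not called, and with the library number as a block it was, at -0.17 ± 0.061 (SE, adjusted p = 0.0134). Slc39a4 (ZIP4; ENSMUSG00000063354, chr15:76612383-76617384, reverse strand) was also lowest in TolDC without LPS, with 30.5, 30.9 and 32.9 CPM in BMDC, 63.8, 71.1 and 68.9 with LPS, 22.5, 21.3 and 22.3 in TolDC alone and 74.0, 73.8 and 77.5 in LPS-treated TolDC. It rose by 1.19 ± 0.046 (SE, adjusted p = 3.07e-14) in BMDC and 1.87 ± 0.047 (SE, adjusted p = 7.17e-17) in TolDC. Slc39a14 (ZIP14), which also carries manganese and iron, rose from 20.6 ± 0.793 to 26.7 ± 1.18 CPM in BMDC (0.45 ± 0.070 SE, adjusted p = 1.19e-05) and from 22.6 ± 2.02 to 48.7 ± 2.27 in TolDC (1.21 ± 0.066 SE, adjusted p = 5.96e-12), with LPS higher in TolDC by 0.89 ± 0.065 (SE, adjusted p = 7.27e-10). Slc39a6 and Slc39a10, which act together at the plasma membrane, fell with LPS in both. Slc39a6 was 68.3 ± 2.88 and 37.4 ± 1.19 CPM in BMDC, and Slc39a10 was 52.3 ± 2.18 and 26.5 ± 1.34 in TolDC. Slc39a7, of the endoplasmic reticulum, and Slc39a1, of the plasma membrane, were the most abundant ZIP members per length, with group means of 186 to 217 and 139 to 142 CPM. Slc39a3 was 15.6 ± 1.38 CPM in TolDC and 21.7 ± 0.414 with LPS, a called rise. The Golgi carriers Slc39a9 and Slc39a13 fell with LPS in both kinds of cell, and were 63.0 ± 2.59 and 50.4 ± 2.75 CPM in BMDC and 41.7 ± 1.29 and 41.5 ± 1.76 with LPS. Slc39a11 was 42.0 ± 1.000 CPM in TolDC against 35.3 ± 0.388 in BMDC, and with LPS fell in BMDC to 24.0 ± 1.79.

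Of the 6 zinc exporters, none rose and 3 fell with LPS in BMDC (50% called, against 73.2% of all genes tested). With LPS, 4 were higher and 1 lower in TolDC than in BMDC (83.3% called, against 67.9%). Slc30a1, whose direction can follow from the choice, is among those 4. Slc30a4 (ZnT4; ENSMUSG00000005802, chr2:122681233-122702663, reverse strand), which loads zinc into endosomes and lysosomes, was 197, 195 and 188 CPM in BMDC and 181, 168 and 161 with LPS. In TolDC it was 74.4, 69.3 and 70.5 CPM, and 63.7, 60.7 and 61.9 with LPS. Neither LPS change was called, but both were with the library number as a block, at -0.11 ± 0.034 (SE, adjusted p = 0.00386) in BMDC and -0.10 ± 0.038 (SE, adjusted p = 0.0196) in TolDC. All TolDC libraries were below all BMDC libraries, with a difference of -1.44 ± 0.053 (SE, adjusted p = 3.97e-14) without LPS, 2.72-fold lower, and -1.43 ± 0.053 (SE, adjusted p = 3.22e-14) with it. Slc30a1 (ZnT1; ENSMUSG00000037434, chr1:191906767-191913247, forward strand), the plasma membrane exporter, entered through the TolDC groups. It was 5.34, 5.83 and 5.71 CPM in BMDC, 3.69, 3.98 and 3.82 with LPS, 13.9, 11.7 and 12.8 in TolDC alone and 11.9, 11.2 and 11.1 in LPS-treated TolDC, so it lay the other way round from Slc30a4. Slc30a5, a zinc carrier of the secretory pathway, fell with LPS from 61.0 ± 1.39 to 30.6 ± 0.715 CPM in BMDC (-0.92 ± 0.043 SE, adjusted p = 4.63e-13) and from 54.8 ± 0.341 to 34.3 ± 1.93 in TolDC (-0.58 ± 0.042 SE, adjusted p = 3.32e-10). Slc30a9 was 65.3 ± 1.31 CPM in BMDC and 94.4 ± 4.83 in TolDC, and was called higher in TolDC. Slc30a7, a Golgi zinc carrier, was 74.4 ± 3.53 and 77.0 ± 2.67 CPM and was not called between them, and Slc30a6, which pairs with Slc30a5, was 13.2 ± 1.07 and 11.9 ± 0.396.

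The genes that bind and sense zinc were counted as a partner list. Mt1, a metallothionein, was 42.8 ± 2.97, 30.8 ± 1.47, 79.4 ± 4.71 and 92.4 ± 6.69 CPM in BMDC, BMDC with LPS, TolDC and TolDC with LPS. Mt2 was 0.572 ± 0.283, 9.06 ± 1.37, 1.87 ± 0.610 and 37.9 ± 4.92, and Mt3 14.0 ± 1.22, 2.27 ± 0.133, 65.8 ± 3.15 and 37.3 ± 4.22. All 3 were called higher in TolDC than in BMDC with and without LPS, and Mt2 rose with LPS in both kinds of cell while Mt3 fell in both. Mtf1, the zinc-sensing transcription factor that switches metallothionein genes and Slc30a1 on, was 33.4 ± 0.383 CPM in BMDC and 33.9 ± 1.24 in TolDC and was not called between them. With LPS it rose in BMDC, to 40.2 ± 0.663 CPM (0.34 ± 0.044 SE, adjusted p = 1.23e-06), was not called in TolDC, at 33.0 ± 0.376, and was lower in TolDC than in BMDC (-0.27 ± 0.043 SE, adjusted p = 2.54e-05).

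**Figure D5:**
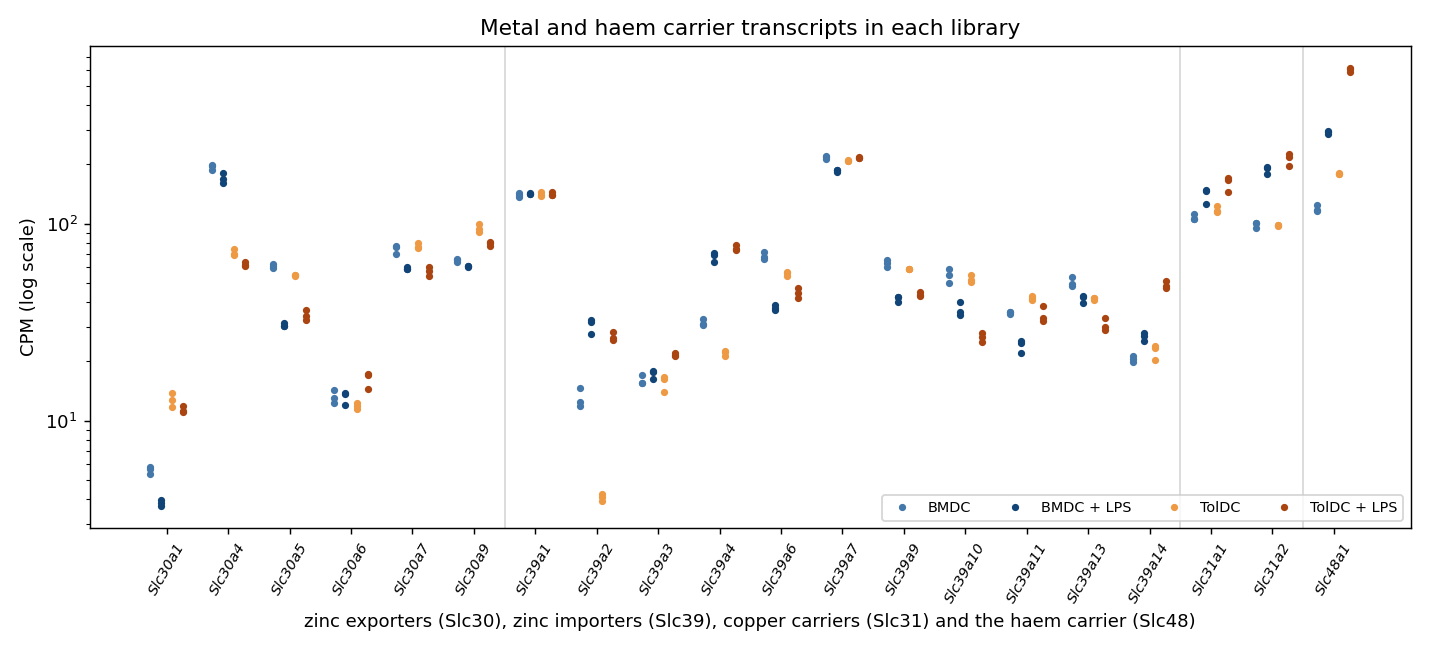
Levels in CPM (log scale, y axis) of the 20 metal and haem carriers (x axis, zinc exporters first, then zinc importers, copper carriers and the haem carrier) in each library of the 4 groups. Slc30a4 is lower and Slc30a1 higher in both TolDC groups, Slc39a2 is lowest in TolDC without LPS, and Slc48a1 is highest in TolDC with LPS. Slc30a1 entered through the TolDC groups, so its direction can follow from the choice.

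The promoter windows of Slc30a1 and Slc30a4 are shown as those of zinc exporters whose values lay opposite ways between TolDC and BMDC. Mtf1 reads a known DNA element. Slc30a1 met the minimum in TolDC libraries only, so its direction can follow from the choice and is a description. The windows, from 250 bases before to 50 after the start, come from RefSeq (GRCm38.p6), chr1:191906531-191906830 on the forward strand and chr2:122702614-122702913 on the reverse strand. They are written 5′ to 3′ with capitals on matches, on either strand, to the metal response element core, TGCACNC or TGCGCNC.
Slc30a1: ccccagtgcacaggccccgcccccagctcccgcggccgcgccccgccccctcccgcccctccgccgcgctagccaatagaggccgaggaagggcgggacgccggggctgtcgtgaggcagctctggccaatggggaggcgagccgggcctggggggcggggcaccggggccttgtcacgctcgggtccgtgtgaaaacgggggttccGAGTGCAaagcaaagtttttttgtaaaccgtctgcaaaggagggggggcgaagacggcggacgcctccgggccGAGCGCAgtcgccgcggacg
Slc30a4: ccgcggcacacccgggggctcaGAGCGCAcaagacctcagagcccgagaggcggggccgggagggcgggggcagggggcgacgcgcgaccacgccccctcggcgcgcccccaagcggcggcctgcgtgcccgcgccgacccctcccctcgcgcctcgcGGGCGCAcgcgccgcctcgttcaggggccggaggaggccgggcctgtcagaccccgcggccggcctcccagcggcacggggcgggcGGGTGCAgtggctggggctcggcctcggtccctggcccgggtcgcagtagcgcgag
Slc30a1 held 2 matches and Slc30a4 held 3, and no match overlapped another. The element was matched in 25.7% of 32851 windows of this length and in 44 of 119 windows of members (37.0%), which covered 85 of the 112 members. A match is a stretch of letters and shows no binding.

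Inorganic ion carriers set cell volume, pH and the supply of phosphate, sulphate and magnesium. Of 16, 9 rose and 4 fell with LPS in BMDC (81.2% called, against 73.2% of all genes tested). In TolDC 6 rose and 9 fell (93.8% against 71.3%). Slc41a1 (ENSMUSG00000013275, chr1:131827493-131848865, forward strand), a magnesium carrier, was 35.4, 31.4 and 31.8 CPM in BMDC and 51.3, 48.1 and 47.0 with LPS, a rise of 0.64 ± 0.063 (SE, adjusted p = 2.95e-08). In TolDC it was 38.8, 36.0 and 38.8 CPM, and 20.5, 18.3 and 19.2 with LPS, a change of -0.87 ± 0.066 (SE, adjusted p = 6.95e-10). With LPS the TolDC libraries were the lowest of the 4 groups and the BMDC libraries the highest (-1.32 ± 0.065 SE, adjusted p = 2.13e-12), and the responses differed by -1.52 ± 0.091 (SE, adjusted p = 3.22e-10). Its relative Slc41a2 was 30.3 ± 2.35 CPM in BMDC and 18.5 ± 0.996 in TolDC, and was not called with LPS in either. Slc41a3, of the same family, had its highest mean in BMDC, 13.4 ± 1.26 CPM.

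The potassium chloride cotransporters let cells shrink after swelling. Slc12a7 (KCC4; ENSMUSG00000017756, chr13:73733094-73816754, forward strand) was 72.0, 62.8 and 62.6 CPM in BMDC and 37.3, 32.9 and 33.4 in TolDC (-0.93 ± 0.076 SE, adjusted p = 4.87e-08). With LPS it was 88.9, 80.8 and 77.5 in BMDC and 24.3, 24.5 and 22.4 in TolDC, 3.43-fold lower (-1.78 ± 0.077 SE, adjusted p = 1.99e-11). It rose with LPS in BMDC (0.40 ± 0.072 SE, adjusted p = 1.38e-04) and fell in TolDC (-0.44 ± 0.080 SE, adjusted p = 1.49e-04). Slc12a4 (KCC1) was 84.4 ± 2.41 CPM in TolDC and 54.2 ± 0.574 with LPS.

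Slc20a1 (PiT1), a sodium phosphate importer, rose with LPS in BMDC, from 53.2 ± 2.91 to 76.3 ± 2.43 CPM (0.59 ± 0.042 SE, adjusted p = 2.93e-10), and fell in TolDC, from 101 ± 2.25 to 71.9 ± 2.19 (-0.39 ± 0.041 SE, adjusted p = 7.77e-08). TolDC began higher (0.92 ± 0.042 SE, adjusted p = 8.46e-13), and with LPS the groups overlapped. Slc20a2 (PiT2) had its highest mean in TolDC with LPS, 17.7 ± 1.08 against 10.7 ± 0.541 CPM in BMDC with LPS. The sulphate carrier Slc26a2 was lower in TolDC, at 41.2 ± 1.06 against 63.4 ± 4.80 CPM (-0.63 ± 0.062 SE, adjusted p = 9.48e-08), and at 30.8 ± 0.874 against 62.8 ± 4.35 with LPS (-1.01 ± 0.063 SE, adjusted p = 1.18e-10). Slc26a6, an anion exchanger, entered through the BMDC groups and was 18.98 ± 1.59 CPM in BMDC and 9.55 ± 0.268 in TolDC. Slc8b1 (NCLX; ENSMUSG00000032754, chr5:120511168-120534024, forward strand), the mitochondrial sodium calcium exchanger, was 89.8, 90.7 and 93.7 CPM in BMDC, 112, 115 and 111 with LPS, 72.6, 74.0 and 71.0 in TolDC alone and 155, 142 and 150.2 in LPS-treated TolDC. It rose more in TolDC (1.14 ± 0.044 SE, adjusted p = 3.27e-14) than in BMDC (0.37 ± 0.044 SE, adjusted p = 3.27e-07), and the difference was 0.77 ± 0.062 (SE, adjusted p = 1.40e-08). The bicarbonate carriers Slc4a2 and Slc4a7 were 49.5 ± 1.36 and 39.6 ± 1.92 CPM in BMDC and 51.7 ± 2.52 and 22.0 ± 0.857 with LPS, and Slc9a8, of the Golgi, was 39.7 to 48.1 CPM over the groups.

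Nucleotide sugar carriers bring activated sugars into the Golgi and endoplasmic reticulum for glycosylation. Of 14 members in this class, 5 rose and 6 fell with LPS in BMDC (78.6% called, against 73.2% of all genes tested). In TolDC 3 rose and 7 fell (71.4% against 71.3%). None changed 2-fold with LPS in BMDC, where 11.2% of all genes rose and 11% fell that far. None did in TolDC, where the shares of all genes were 9.64% and 10.6%. Slc33a1 (AT-1; ENSMUSG00000027822, chr3:63933507-63964768, reverse strand), which brings acetyl-CoA into the endoplasmic reticulum, was 77.8, 79.2 and 78.3 CPM in BMDC and 46.9, 48.7 and 46.7 in TolDC (-0.73 ± 0.041 SE, adjusted p = 1.75e-11), and with LPS 89.4, 87.3 and 87.4 in BMDC against 33.8, 32.8 and 33.4 in TolDC, 2.60-fold lower in TolDC (-1.38 ± 0.041 SE, adjusted p = 1.23e-15). It was raised by LPS in BMDC (0.24 ± 0.040 SE, adjusted p = 2.14e-05, or 0.16 with upper-quartile scaling) and lowered in TolDC (-0.41 ± 0.042 SE, adjusted p = 6.06e-08). Exons of Slc33a1 overlap those of Gm26850 on the other strand, and unstranded counting kept 71.4% of its reads. Slc35b1, which carries ATP into the endoplasmic reticulum, fell from 65.6 ± 0.862 to 34.3 ± 0.498 CPM with LPS in BMDC (-0.86 ± 0.047 SE, adjusted p = 6.03e-12) and less in TolDC, from 72.6 ± 1.32 to 55.0 ± 2.79 (-0.30 ± 0.045 SE, adjusted p = 7.74e-06), a difference of 0.56 ± 0.065 (SE, adjusted p = 1.40e-06). Slc35a5 and Slc35c2 also fell in both. Slc35a5 went from 29.8 ± 0.953 to 14.3 ± 0.135 CPM in BMDC (-0.99 ± 0.063 SE, adjusted p = 5.64e-11), and Slc35c2 from 70.9 ± 2.58 to 35.9 ± 3.27 (-0.91 ± 0.054 SE, adjusted p = 1.69e-11). The CMP-sialic acid carrier Slc35a1 was 6.80 ± 0.733 CPM in BMDC and 9.58 ± 0.576 in TolDC. The UDP-galactose carrier Slc35a2 had means of 19.3 to 22.8 CPM. The GDP-fucose carrier Slc35c1 was 59.9 ± 2.39 CPM in BMDC and 44.5 ± 3.48 with LPS. The other 7 (Slc35a3, Slc35a4, Slc35b2, Slc35b3, Slc35b4, Slc35d1 and Slc35d2) had group means between 10.2 CPM (Slc35d1 in BMDC) and 75.2 CPM (Slc35a4 in TolDC).

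Carriers of the Slc27 family take up fatty acids or join them to coenzyme A. Slc27a4 (FATP4; ENSMUSG00000059316, chr2:29802634-29817522, forward strand) was 35.2, 45.1 and 44.7 CPM in BMDC and 46.6, 65.6 and 61.7 with LPS (0.54 ± 0.13 SE, adjusted p = 0.00295), and 41.2, 46.5 and 45.7 in TolDC and 65.1, 74.2 and 70.7 with LPS (0.75 ± 0.12 SE, adjusted p = 3.04e-04). Library 1 had the lowest value in each group, as it did for the neutrophil and mast cell or basophil sums, whose part in the result was not tested. Slc27a1 (FATP1) fell with LPS, from 36.3 ± 2.81 to 17.7 ± 1.81 CPM in BMDC (-0.96 ± 0.080 SE, adjusted p = 1.02e-08) and from 60.7 ± 0.403 to 32.1 ± 2.57 in TolDC (-0.82 ± 0.072 SE, adjusted p = 2.14e-08), and was higher in TolDC without LPS (0.74 ± 0.072 SE, adjusted p = 1.40e-07) and with it (0.89 ± 0.080 SE, adjusted p = 4.04e-08). Slc27a3 (ENSMUSG00000027932, chr3:90385239-90389938, reverse strand), an acyl-CoA synthetase of the family, entered through the groups without LPS. It was 17.5, 16.7 and 18.6 CPM in BMDC, 4.26, 4.62 and 4.44 with LPS, 12.7, 11.1 and 11.5 in TolDC alone and 1.97, 2.14 and 2.23 in LPS-treated TolDC. Without LPS the difference of TolDC from BMDC was -0.58 ± 0.077 (SE, adjusted p = 2.77e-06). That direction holds for reads on the gene's own strand only. In TolDC 343, 305 and 354 reads lay on the opposite strand, 53.0% of the reads on both strands, against 25, 13 and 26 in BMDC (4.37%), and with unstranded counts the difference was 0.42. With LPS the difference was -1.04 ± 0.11 (SE, adjusted p = 7.16e-08), or -0.65 with unstranded counts.

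The single amine carrier, Slc18a1 (VMAT1; ENSMUSG00000036330, chr8:69037711-69089235, reverse strand), which loads monoamines into vesicles, entered through BMDC. It was 20.6, 19.6 and 19.8 CPM in BMDC, 10.9, 9.43 and 8.74 with LPS, 3.37, 3.54 and 3.14 in TolDC alone and 2.13, 1.51 and 1.94 in LPS-treated TolDC, with no overlap between any groups. The neutrophil sums were also lower in TolDC and with LPS, and their part in these levels was not tested. Among the 9 carriers of unsettled substrate, Slc35f6 (ENSMUSG00000029175, chr5:30647933-30659729, forward strand) had the most counts, 131, 125 and 133 CPM in BMDC, 138, 127 and 127 with LPS, 154, 148 and 155 in TolDC alone and 153, 140.1 and 144 in LPS-treated TolDC, higher in TolDC by 0.23 ± 0.051 (SE, adjusted p = 7.27e-04) without LPS. Slc35e1 and Slc35e2 fell with LPS in both. Slc35e1 went from 85.5 ± 1.72 to 62.5 ± 0.965 CPM in BMDC (-0.38 ± 0.037 SE, adjusted p = 3.05e-08) and Slc35e2 from 23.0 ± 0.502 to 14.7 ± 0.495 (-0.57 ± 0.061 SE, adjusted p = 8.44e-08). Slc35e4, which entered through the LPS groups, was 6.06 ± 0.456 CPM in BMDC and 13.8 ± 0.164 with LPS, and 7.43 ± 0.983 and 12.1 ± 0.372 in TolDC. The other 5 (Slc10a3, Slc10a7, Slc12a9, Slc35e3 and Slc35f5) had group means from 9.12 CPM (Slc35e3 in TolDC) to 30.6 CPM (Slc35f5 in BMDC).

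Among the 9 carriers left out by name, 6 rose and 1 fell with LPS in BMDC (77.8% called, against 73.2% of all genes). In TolDC 7 rose and 1 fell (88.9% against 71.3%). The members' exons overlap those of another counted gene in 22 cases, with Slc39a2, Slc35a3 and Slc10a3 among those that overlap on the same strand. Counting used the strand, and the median share of a member's reads on the opposite strand was 0.301%. It exceeded 20% in a group in 2 members, Slc27a3 and Slc5a6.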

How the data were processed

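RNA was measured in 12 libraries of enriched dendritic cells, 3 in each of 4 groups. The kit named in the labels' protocols marks strand. Reads were trimmed with cutadapt and aligned and counted with STAR on mm10 (GRCm38), per the submitters' processing notes, which also name edgeR and limma. The sources used here give no versions and no annotation. What was deposited are unnormalised counts of reads per gene, in one column without regard to strand and one for each strand. The reverse-strand column was used, which held 35.2 to 37.3 times the reads of the other strand, and 79.3 to 80.6% of reads in a library were assigned to genes. Gene names and coordinates came from GENCODE release M21 (31011 of 31054 identifiers matched). No column of per-sample values was without a sample.

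CPM here is a gene's count scaled to the library's total over all genes, and TPM divides by the summed exon length as well. TPM was used only to compare genes and to sum them by class. Genes were filtered with filterByExpr in edgeR 4.0.16 (R 4.3.3), which left 13141 and all 112 members. Counts were scaled with TMM factors (0.945 to 1.035), so log2 changes can differ slightly from ratios of CPM. A quasi-likelihood model with robust dispersion was fitted to all 12 libraries, with Benjamini-Hochberg adjustment of the p-values of each comparison and a threshold of 0.05. The fit has no block, as planned, although the library numbers paired the libraries in each of the 4 comparisons of 2 groups: deviations from the group means correlated above 0.1 in all 12 same-number pairs (0.131 to 0.466). Over all groups 17 of 18 such pairs did. The labels do not say what a number stands for. The procedure was tested on simulated data. Single-gene log2 changes are given with their standard errors (SE).

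Members and gene lists were chosen with earlier results of these data known. Substrate and membrane classes came from general knowledge of each protein. Values in every library are printed for the 4 largest rises and 4 largest falls of each comparison, and for the member with the most counts in each class. Log2 changes are printed for those and for up to 3 further members a class. Alternatives were RLE or upper-quartile scaling, DESeq2 1.42.0, no filter on low counts, unstranded counts, a replicate block, leaving out libraries, fitting only the groups compared, and other minimum levels for the rule. Values of some members are not reported here.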

Additional observations from a re-analysis of the deposited data

Results flagged for a closer look

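In 7 members the LPS response of TolDC differed from that of BMDC by 2-fold or more in edgeR's test of the difference itself. The response was lower in TolDC for Slc1a2, a glutamate carrier (-2.57 on the log2 scale), Slc41a1, a magnesium carrier (-1.52), Slc6a13, a GABA and betaine carrier (-1.27), and Slc7a5, the LAT1 light chain (-1.16). For Slc1a2 the level in BMDC without LPS was under 1 CPM, so the size of its change there rests on few reads, and as a member that entered through TolDC with LPS its value is a description. The response was higher in TolDC for Slc7a8, the LAT2 light chain (1.17), Slc39a2, a zinc importer (1.49), and Slc16a10, an aromatic amino acid carrier (1.69).

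At Slc27a3 the strand opposite to the gene held 13.2 ± 0.604 CPM in TolDC, a signal outside the counts used for the comparisons. In BMDC it was 0.831 ± 0.365 CPM, in BMDC with LPS 0.0488 ± 0.0504 and in TolDC with LPS 0.724 ± 0.202. Among the genes counted here, none has an exon in GENCODE M21 that overlaps Slc27a3 on that strand. Annotated genes without counts here were not searched, and where these reads come from was not tested.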

How the results depend on the processing

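The counts of members called in each direction stayed within 1.5 times of those reported under every alternative run. Leaving out 1 library at a time gave 40 to 42 higher and 47 to 51 lower with LPS in BMDC, 37 to 41 and 50 to 55 with LPS in TolDC, 40 to 46 and 31 to 40 between untreated TolDC and BMDC, 53 to 57 and 31 to 33 under LPS, and 33 to 38 and 26 to 29 for the difference between the responses. Of 4638 recomputed values of named members, 4567 kept their direction and side of the threshold, 70 kept only the direction, and 1 reversed, the difference of Slc27a3 between TolDC and BMDC without LPS, which was 0.42 with unstranded counts, since the reads on the opposite strand enter those counts. A minimum of 5 CPM gave 131 members, 20 CPM gave 93, and a mean of 10 CPM over the libraries gave 103. Depth limits the LPS change of Slc1a2 in BMDC, whose level without LPS was under 1 CPM.

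With the library number as a replicate block, the members called were 44 higher and 52 lower with LPS in BMDC, 41 and 56 with LPS in TolDC, 46 and 36 between untreated TolDC and BMDC, 57 and 33 under LPS, and 40 and 28 for the difference between the responses. Of 448 values of members in the first 4 comparisons, the block changed 15 calls, with 14 gained and 1 lost, and beside those given with their genes it changed no call stated for a single member.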

Other observations

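Carriers left out of the set by name included abundant ones. Slc7a2, an arginine carrier, was 465 ± 32.7 CPM in BMDC and 2331 ± 119 with LPS, while TolDC had 461 ± 27.7 and 2644 ± 96.6. Slc28a3, a concentrative nucleoside carrier, was 75.8 ± 4.58 CPM in BMDC and 3.74 ± 0.490 in TolDC, and Slc40a1, the iron exporter, 9.64 ± 1.20 and 22.4 ± 1.34.

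Some members are neighbours in the genome. Slc35b2 and Slc29a1 are 17528 bases apart on chr17. Slc29a1 was 65.3, 27.7, 26.8 and 12.5 CPM in BMDC, BMDC with LPS, TolDC and TolDC with LPS, and Slc35b2 was 31.9, 38.5, 32.4 and 35.8. Slc38a1 and Slc38a2, 44478 bases apart on chr15, were 162 and 89.2 CPM in TolDC and 112 and 78.8 in LPS-treated TolDC.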
